A study of Mus musculus with 8 samples.

Results

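The genes Foxp3, Ikzf2, Ikzf4, Gpr83, Nrp1, Izumo1r and Lrrc32, which are characteristic of regulatory T cells, were followed through CD4 T cells that had been driven into the Th17 or the Th1 fate with or without the methylcytosine oxidase Tet2. These 7 genes, of 19938 measured, were taken by symbol, and their probesets were chosen by the mean over the 8 arrays, the highest being kept. Each gene had a single probeset, so that step left nothing to choose. The cells were Tet2-/- Th17, wild-type Th17, Tet2-/- Th1 and wild-type Th1 cells, with 2 arrays in each of the 4 groups, named biological replicates. Their source was naive CD4 T cells (CD25-negative, with high CD62L and low CD44) of C57BL/6 mice, sorted out of spleen and lymph nodes and stimulated through CD3 and CD28. Th17 cultures received 0.5 ng/ml TGF-β1 and 10 ng/ml IL-6 with antibodies to interferon-γ and IL-4, and Th1 cultures received 10 ng/ml IL-12 and 30 U/ml IL-2 with an antibody to IL-4. The Tet2 allele, whether it was lost in T cells only or in the whole animal, the age of the mice and the number of mice behind an array are not given in the sources used here. P values therefore measure the spread between these arrays, and how far it reflects differences between animals is not known.

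Regulatory T cells hold back other immune cells, and the transcription factor Foxp3 fixes their identity. TGF-β together with IL-2 induces Foxp3 in naive CD4 T cells, whereas TGF-β together with IL-6 leads to the Th17 fate, so the Th17 and regulatory programs share a starting signal. Tet enzymes oxidise methylated cytosine at CG dinucleotides, a step towards demethylation, and stable Foxp3 expression is known to go with demethylation of an intronic element of the gene. The sort on CD25-negative cells would be expected to leave out most regulatory T cells of the donor animals, which carry CD25, the product of Il2ra.

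Gpr83 and Izumo1r lie side by side on mouse chromosome 9, and their promoters differ in the number of CG dinucleotides. The 300 bases around each start (250 before and 50 after it, RefSeq, build GRCm38.p6) are therefore shown 5′ to 3′ with each CG in capitals. The Gpr83 window is chr9:14859960-14860259 on the + strand, and the Izumo1r window is chr9:14903718-14904017 on the - strand.
Gpr83: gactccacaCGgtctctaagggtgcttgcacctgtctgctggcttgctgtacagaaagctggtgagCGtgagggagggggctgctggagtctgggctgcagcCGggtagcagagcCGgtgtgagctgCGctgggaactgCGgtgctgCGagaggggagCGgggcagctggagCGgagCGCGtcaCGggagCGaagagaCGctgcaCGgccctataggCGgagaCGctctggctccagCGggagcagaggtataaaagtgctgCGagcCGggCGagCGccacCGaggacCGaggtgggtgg
Izumo1r: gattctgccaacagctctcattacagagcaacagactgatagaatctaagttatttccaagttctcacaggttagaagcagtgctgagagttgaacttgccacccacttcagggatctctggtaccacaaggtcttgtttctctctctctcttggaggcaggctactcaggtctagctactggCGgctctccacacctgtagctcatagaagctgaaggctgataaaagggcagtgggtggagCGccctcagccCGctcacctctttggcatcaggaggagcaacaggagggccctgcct
The Gpr83 window held 24 CG dinucleotides, more than 80.0% of 32851 promoters of the same length, whose median was 7. The Izumo1r window held 3, more than 23.3% of them. Promoter sequences matched 4 of the 7 genes: the Nrp1 promoter (chromosome 8) held 14 CG dinucleotides, and Foxp3 (chromosome X) had 2 listed promoters with 6 and 8. The letters GTAAACA, a forkhead-type motif, were in none of these 5 windows and in 3.65% of all promoters. On either strand TGACCT, a core of nuclear receptor motifs, was in 1 Foxp3 window and in that of Nrp1 (16.3% of all promoters), and TGGGAA, the core of the Rbpj motif, was in the other Foxp3 window and in that of Gpr83 (25.6%). No methylation was measured on these arrays, so whether these CG dinucleotides are methylated in the cells is not known.

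The arrays showed the labelled fates. All 6 measured genes of the Th17 list were called higher in Th17 than in Th1 cells in both genotypes, and 3 of 5 Th1 genes were called lower. The 6 measured T cell genes averaged 10.70 to 11.02 log2 units. Correlations across genes were 0.990 to 0.994 within a group and 0.977 to 0.981 between Th17 and Th1 arrays. The Tet2 probeset read 8.37 and 8.42 log2 units in Tet2-/- Th17 cells, 8.53 and 8.51 in wild-type Th17 cells, 8.12 and 7.97 in Tet2-/- Th1 cells and 8.14 and 8.03 in wild-type Th1 cells. Whether it lies in the deleted stretch is unknown, and these values are no check on genotype. Sex-linked transcripts set some Th17 arrays apart. Xist read 8.62 and 11.3 in Tet2-/- Th17 cells and 5.20 and 10.1 in wild-type Th17 cells, against 4.83 to 5.11 in Th1 cells. The mean of 3 Y-linked genes was 4.85 in Tet2-/- Th17 replicate 2 and 7.82 to 8.80 on the other 7 arrays.

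The 7 genes fell into 3 kinds by their levels. Foxp3 and Ikzf2 stayed near or below the 95th percentile of olfactory receptor genes, which T cells would not be expected to use. Neither had a difference between groups past the threshold. Gpr83 and Lrrc32 separated Th17 from Th1 cells. Nrp1, Izumo1r and Ikzf4 were above that percentile on 8 of 8 arrays, and 0 of these 3 passed the test in any comparison. In bulk RNA of this kind, fewer cells of a type and less RNA per cell cannot be told apart.

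**Figure D1:**
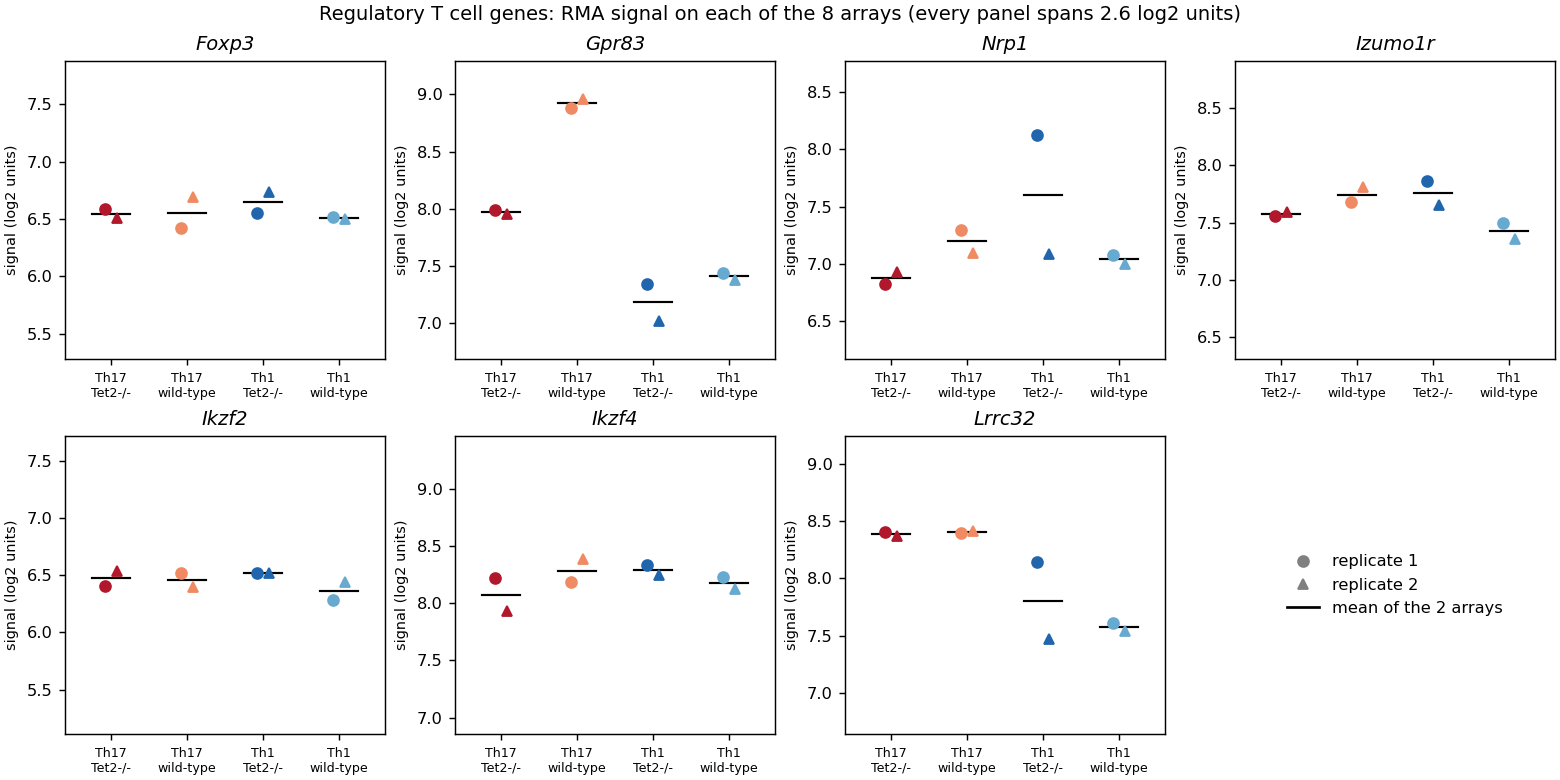
Signal of the 7 genes on each of the 8 arrays in log2 units, 1 panel per gene, with circles for replicate 1, triangles for replicate 2 and a line for the mean of both. Gpr83 forms steps, with Tet2-/- Th17 arrays at 7.99 and 7.96 below wild-type Th17 arrays at 8.88 and 8.96, and all Th1 arrays at 7.44 or below, whereas Foxp3 keeps within 6.42 to 6.74; Nrp1 and Lrrc32 each have a high Tet2-/- Th1 replicate 1.

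Among the transcription factors, Foxp3 read 6.59 and 6.51 log2 units in Tet2-/- Th17 cells, 6.42 and 6.69 in wild-type Th17 cells, 6.55 and 6.74 in Tet2-/- Th1 cells, and 6.52 and 6.50 in wild-type Th1 cells. The groups overlapped except in Th1 cells, where both Tet2-/- arrays lay above both wild-type arrays. The range of its 4 group means (0.14) was smaller than the gap between the replicates of wild-type Th17 cells (0.27). Olfactory receptor genes (1015) served as a yardstick chosen after the values were seen. On these arrays they had a median of 5.00 to 5.56 and a 95th percentile of 6.51 to 6.99. Foxp3 lay above that median on every array. It exceeded the 95th percentile on 2 of 8 arrays, Tet2-/- Th17 replicate 1 and wild-type Th17 replicate 2. Among all genes it lay at the 46.3 to 53.9 percentile. Levels are not comparable between probesets, so this yardstick cannot decide whether Foxp3 was expressed. Expression of Foxp3 is not shown in any group, and a fall from so low a signal might not have been seen. The log2 difference between Tet2-/- and wild-type Th17 cells was -0.01 (confidence interval -0.27 to 0.26), and that between Th17 and Th1 cells was -0.10 in Tet2-/- and 0.05 in wild-type cells (interval of the last -0.22 to 0.31, limma adjusted p = 0.851).

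Ikzf2, which encodes Helios, an Ikaros-family factor of regulatory T cells, was as dim. It read 6.40 and 6.54 in Tet2-/- Th17 cells, 6.52 and 6.39 in wild-type Th17 cells, 6.52 and 6.52 in Tet2-/- Th1 cells and 6.29 and 6.44 in wild-type Th1 cells. It exceeded the olfactory receptor percentile on 0 of 8 arrays. Ikzf4, which encodes Eos, a corepressor partner of Foxp3, was brighter, at 8.22 and 7.93 in Tet2-/- Th17 cells, 8.19 and 8.38 in wild-type Th17 cells, 8.33 and 8.24 in Tet2-/- Th1 cells and 8.23 and 8.12 in wild-type Th1 cells. The range of its 4 group means (0.21) was smaller than the gap between the Tet2-/- Th17 replicates (0.28), and its log2 differences of -0.21 between Tet2-/- and wild-type Th17 cells (SE 0.133, adjusted p = 0.999) and -0.21 between Tet2-/- Th17 and Tet2-/- Th1 cells (SE 0.133, adjusted p = 0.362) did not pass. The difference of its genotype effects, Th17 minus Th1, was -0.32 (SE 0.188, adjusted p = 0.999). Of the 3 other Ikaros genes, Ikzf3, which encodes Aiolos, was called. It was higher in Th17 than in Th1 cells by 1.42 in Tet2-/- cells (adjusted p = 7.45e-05) and by 1.68 in wild-type cells (adjusted p = 2.17e-05).

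Gpr83, a G protein-coupled receptor enriched on regulatory T cells, had the widest range of the 7 genes. Its probeset read 7.99 and 7.96 log2 units in Tet2-/- Th17 cells, 8.88 and 8.96 in wild-type Th17 cells, 7.35 and 7.02 in Tet2-/- Th1 cells, and 7.44 and 7.38 in wild-type Th1 cells. The group means were 7.97 ± 0.026 in Tet2-/- Th17, 8.92 ± 0.055 in wild-type Th17, 7.18 ± 0.232 in Tet2-/- Th1 and 7.41 ± 0.043 in wild-type Th1 cells (SD, n = 2 each). Wild-type Th17 cells were highest, then Tet2-/- Th17, wild-type Th1 and Tet2-/- Th1 cells, and no array crossed into the next group, although the Th1 groups did not differ past the threshold. Gpr83 was higher in Th17 than in Th1 cells in both genotypes. The log2 difference was 0.79 in Tet2-/- cells (SE 0.128, confidence interval 0.51 to 1.07, 1.73-fold, limma adjusted p = 0.00188) and 1.51 in wild-type cells (SE 0.128, interval 1.23 to 1.79, 2.85-fold, adjusted p = 1.62e-05). Both calls held in 18 of 18 alternative settings.

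In Th17 cells the Gpr83 level was 1.93-fold lower without Tet2, at -0.95 (SE 0.128, confidence interval -1.23 to -0.67). The adjusted p was 0.0689, so the gene did not pass the threshold of 0.05, although it ranked second of all genes by p. With array weights (adjusted p = 0.0307) and with dim genes left out (0.0377) it passed; over all 18 settings the adjusted p ran from 0.0307 to 0.866 while the log2 difference kept within -0.99 to -0.91. Adding the mean Y-linked signal to the model gave -0.95 (adjusted p = 0.305). In Th1 cells, where the level was lower in both genotypes, the difference was -0.23 (interval -0.50 to 0.05, adjusted p = 0.855). The difference of the 2 genotype effects, Th17 minus Th1, was -0.72 (SE 0.182, interval -1.12 to -0.33) with an unadjusted p of 0.00172 and an adjusted p of 0.954, so a larger effect in Th17 cells was not established over all genes. The low Gpr83 level in Tet2-/- Th17 cells was known when these genes were brought together, so this contrast is a description and supports nothing further.

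The other 2 surface receptors leaned in opposite directions in the 2 fates. Izumo1r, which encodes folate receptor 4, a marker of regulatory T cells that is also the egg's receptor for the sperm protein Izumo1, read 7.55 and 7.60 in Tet2-/- Th17 cells against 7.68 and 7.81 in wild-type Th17 cells. It read 7.86 and 7.66 in Tet2-/- Th1 cells against 7.50 and 7.36 in wild-type Th1 cells. Both Tet2-/- arrays were thus below both wild-type arrays in Th17 cells and above them in Th1 cells. The log2 differences were -0.17 (confidence interval -0.43 to 0.10, adjusted p = 0.999) and 0.33 (interval 0.07 to 0.60, adjusted p = 0.824), and neither passed.

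Nrp1, which encodes neuropilin-1, a co-receptor for semaphorins and vascular endothelial growth factor that marks thymus-derived regulatory T cells, read 6.82 and 6.93 in Tet2-/- Th17 cells against 7.29 and 7.10 in wild-type Th17 cells. It read 8.12 and 7.082 in Tet2-/- Th1 cells against 7.080 and 7.0 in wild-type Th1 cells, so Tet2-/- replicate 2 barely cleared wild-type replicate 1. A single array stood out, Tet2-/- Th1 replicate 1. Its gap to replicate 2, 1.04 log2 units, was the 11th largest of all 19938 genes in that group, where the median gap was 0.121. The log2 difference between Tet2-/- and wild-type Th1 cells was 0.56 (confidence interval 0.04 to 1.08, adjusted p = 0.841). It was 0.04 without that array and 1.08 without the other. Between Th17 and Th1 cells Nrp1 differed by -0.73 in Tet2-/- cells (adjusted p = 0.0742) and by 0.16 in wild-type cells (adjusted p = 0.739). Without Tet2-/- Th1 replicate 1 the -0.73 became -0.21 (adjusted p = 0.520), and without replicate 2 it became -1.24 and passed (adjusted p = 0.000672). Of 3 markers of plasmacytoid dendritic cells, another cell type that carries neuropilin-1, Bst2 read 7.89 on Tet2-/- Th1 replicate 1 and 7.60 on replicate 2, Siglech read 6.09 and 6.08, and Ccr9 read 4.90 and 5.19. Over the 8 arrays Bst2 ran from 7.37 to 8.01, above the olfactory receptor percentile, whereas Siglech (5.81 to 6.17) and Ccr9 (4.86 to 5.19) were below it on 8 of 8 arrays. The mean of the 3 was 6.16 to 6.17 in Tet2-/- Th17, 6.14 to 6.20 in wild-type Th17, 6.29 on both Tet2-/- Th1 arrays and 6.17 to 6.36 in wild-type Th1 cells. The part of such cells in the Nrp1 values was not tested.

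Lrrc32 encodes GARP, the protein that holds latent TGF-β on the surface of regulatory T cells. It read 8.41 and 8.37 in Tet2-/- Th17 cells, 8.40 and 8.42 in wild-type Th17 cells, 8.14 and 7.47 in Tet2-/- Th1 cells, and 7.61 and 7.54 in wild-type Th1 cells. The 4 Th17 arrays lay within 0.05 of each other and above every Th1 array, among which Tet2-/- Th1 replicate 1 was again the high one. Lrrc32 was higher in wild-type Th17 than in wild-type Th1 cells by 0.83 (SE 0.174, confidence interval 0.46 to 1.21, 1.78-fold, adjusted p = 0.0111). In Tet2-/- cells the difference was 0.58 (interval 0.21 to 0.96, adjusted p = 0.0512). Without Tet2-/- Th1 replicate 1 it was 0.92 and passed (adjusted p = 0.00338), and without replicate 2 it was 0.25 (adjusted p = 0.371). The wild-type call passed in 13 of 18 settings, with adjusted p between 0.00117 and 0.0985. Genotype differences were -0.02 in Th17 and 0.23 in Th1 cells, neither past the threshold. The Th1 value turned to -0.11 without Tet2-/- Th1 replicate 1 and was 0.57 without replicate 2.

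Some markers of other cells also differed between the fates. The mean of 8 stromal and endothelial markers was 6.87 to 6.95 in Tet2-/- Th17, 6.60 to 6.70 in wild-type Th17, 6.32 to 6.39 in Tet2-/- Th1 and 6.25 to 6.27 in wild-type Th1 cells. In Tet2-/- cells 5 of the 8 were higher and 3 lower in Th17 than in Th1 cells (median log2 difference 0.02). In wild-type cells 4 were higher and 4 lower (median 0.001), so the list did not move as a whole. Lum and Pecam1 were called higher in Th17 than in Th1 cells in both genotypes and Dcn in Tet2-/- cells. Cdh5 and Kdr, listed as endothelial markers like Pecam1, were not called and read 5.75 to 6.01 and 5.16 to 5.52 over all arrays. Between the Th17 genotypes 7 of these 8 markers were higher in Tet2-/- cells (median 0.11), as were 56.6% of all genes. Of the markers 0 were called, as were 0% of all genes. Lum, a matrix proteoglycan, averaged 8.07 in Tet2-/- Th17 and 7.04 in wild-type Th17 cells, against 5.07 to 5.41 on the Th1 arrays. Their part in the Gpr83 and Lrrc32 differences was not tested. Means of the marker lists were 5.25 to 5.45 for B cells, 4.88 to 5.42 for NK cells, 5.60 to 5.88 for myeloid cells and 6.23 to 6.56 for CD8 T cells. Between Th17 and Th1 cells 0 B cell, myeloid or CD8 markers were called in either genotype, against 10.4% of all genes in Tet2-/- and 8.47% in wild-type cells. Of 8 myeloid markers, 7 were lower and 1 higher in Th17 cells without Tet2 (median -0.10). In wild-type cells 8 were lower (median -0.18). Of all genes, 51.2% and 52.8% were lower. Between the Th17 genotypes 7 of the 8 myeloid markers were higher in Tet2-/- cells (median 0.11). On the NK list Eomes, a transcription factor that T cells also use, was called lower in Th17 cells in both genotypes (-1.36 in Tet2-/- and -1.31 in wild-type cells) and ran from 6.69 to 8.26 over the arrays. On the myeloid list Cd68 read 7.28 to 7.99. The part of such cells was not tested.

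**Figure D2:**
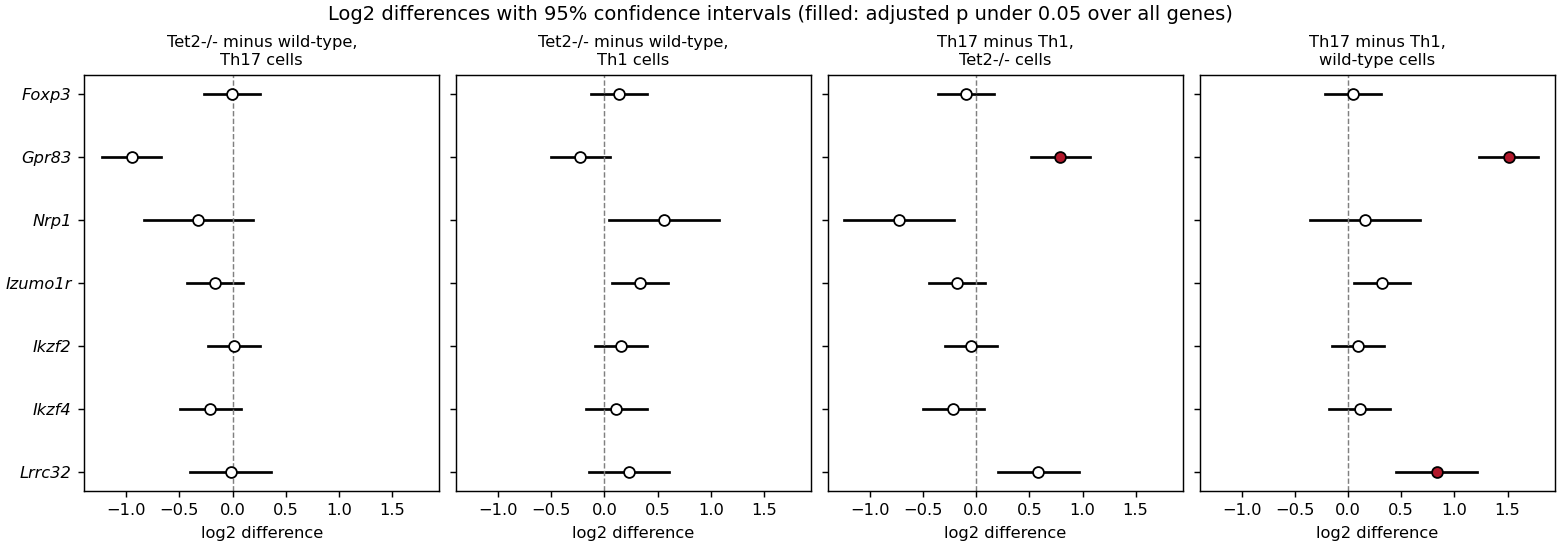
Log2 differences of the 7 genes in 4 comparisons, 1 panel each, with points for the estimates, lines for 95% confidence intervals and filled points for an adjusted p under 0.05. Filled points are Gpr83 between Th17 and Th1 cells in both genotypes (0.79 in Tet2-/- and 1.51 in wild-type cells) and Lrrc32 in wild-type cells (0.83), and none is filled in the genotype panels.

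Counted together, 0 of the 7 genes were called between Tet2-/- and wild-type Th17 cells, where limma called 0% of all genes, and 1 (Gpr83) had an unadjusted p under 0.05, as did 4.25% of all genes. The Gpr83 value was known when the genes were brought together, so its place in these counts supports nothing. Differences were negative for 6 of 7 genes, with a median of -0.17 beside 0.02 for all genes, of which 43.4% were lower. The arrays did not overlap for Gpr83, Nrp1 and Izumo1r, each lower in Tet2-/- cells, as for 13.3% of all genes. In Th1 cells the balance was the other way: 6 of 7 differences were positive, as were 52.2% of all genes. The median was 0.16 beside 0.01, and 0 of 7 were called, against 0.00502% of all genes. Without Tet2-/- Th1 replicate 1, Lrrc32 turned to -0.11 and Nrp1 fell to 0.04. The arrays did not overlap for Foxp3, Nrp1, Izumo1r, Ikzf2 and Ikzf4, each higher in Tet2-/- cells (18.3% of all genes), and for Gpr83, which was lower (14.4%). For Nrp1 the nearest arrays of the Th1 genotypes were almost equal, at 7.082 and 7.080. Th1 Nrp1 and Izumo1r had unadjusted p of 0.0355 and 0.0175, where 5.74% of all genes had one under 0.05.

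For the difference of the genotype effects, 0 of 7 genes and 0% of all genes were called. Negative values were found for 7 of 7 genes and 47.3% of all genes, with a median of -0.32 beside 0.01. These values are the Th17 genotype differences minus the Th1 ones, and equally the Tet2-/- fate differences minus the wild-type ones. Their signs therefore follow from the other counts and are no separate result. The Lrrc32 value turned to 0.087 without Tet2-/- Th1 replicate 1. Unadjusted p under 0.05 were reached by Gpr83, Nrp1 (-0.88) and Izumo1r (-0.50), against 4.55% of all genes. The Gpr83 value draws again on the low level in Tet2-/- Th17 cells that was known beforehand. Nrp1 and Izumo1r belonged to the 1.81% of genes whose Tet2-/- arrays were all lower in Th17 and all higher in Th1 cells, Nrp1 barely so in Th1 cells. Between Th17 and Th1 cells, 1 of 7 genes was called in Tet2-/- cells, against 10.4% of all genes (7.14% higher and 3.29% lower), and 2 of 7 in wild-type cells, against 8.47% (5.3% higher and 3.17% lower). Each call among the 7 was in the higher direction. All 7 differences were positive in wild-type cells (median 0.16), as were 47.2% of all genes. In Tet2-/- cells 2 of 7 were positive (median -0.10), as were 48.8% of all genes. These 2 comparisons share no array with each other, but each shares arrays with the genotype comparisons.

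The low level of Gpr83 in Tet2-/- Th17 cells was not seen in the genes around it. In chromosomal order these are Ankrd49, the DNA repair nuclease gene Mre11a, then Gpr83 and Izumo1r, then the channel gene Panx1 and the ferroxidase gene Hephl1. The log2 differences between Tet2-/- and wild-type Th17 cells were -0.10, -0.01, -0.95, -0.17, -0.01 and -0.01 in that order, and those between the Th1 groups were -0.28, -0.07, -0.23, 0.33, 0.19 and 0.12. Between Th17 and Th1 cells only Gpr83 of the 6 was called. Ankrd49 and Mre11a differed by 0.56 and 0.36 in Tet2-/- cells and by 0.39 and 0.29 in wild-type cells, and the lowest adjusted p among the 5 other genes was 0.066, for Mre11a in Tet2-/- cells.

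**Figure D3:**
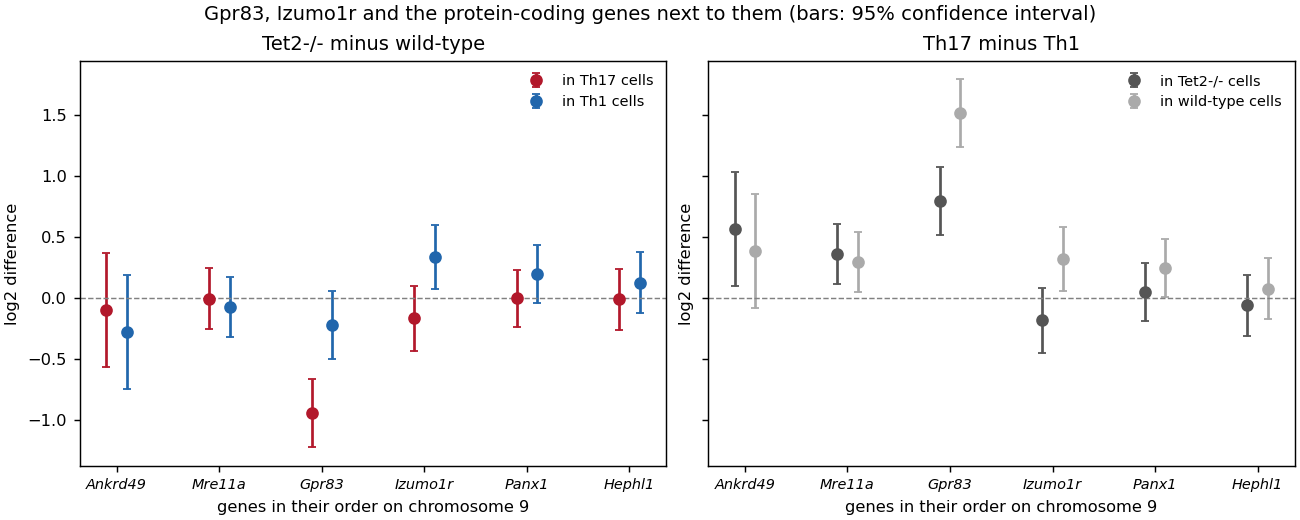
Log2 differences of Gpr83, Izumo1r and 2 protein-coding genes on either side, in their order on chromosome 9, with bars for 95% confidence intervals; the left panel shows Tet2-/- minus wild-type and the right panel Th17 minus Th1. Gpr83 stands apart from its neighbours at -0.95 in Th17 cells, 0.79 in Tet2-/- cells and 1.51 in wild-type cells.

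Among 7137 genes whose signal ranged over at least 0.5 log2 units, the 3 most like Gpr83 over the 8 arrays were Rapgef5 (r = 0.983), Riok2 (0.975) and Myof (0.969). Those most like Nrp1 were Snu13 (0.950), Ints5 (0.950) and Synb (0.940), a likeness carried by Tet2-/- Th1 replicate 1. For Foxp3 they were Smg9 (0.906), Smyd3 (0.905) and Mllt1 (0.902), over a Foxp3 signal that ranged by 0.32 in all. These are the highest of all values searched over the same 8 arrays, which share fate and genotype, and are given as a description.

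The wider regulatory program was split between the fates. Of 28 measured genes out of 30 in a list of other regulatory T cell genes, 7 rose and 11 fell in Th17 relative to Th1 cells without Tet2, and 8 rose and 8 fell in wild-type cells. Of all genes, 7.14% rose and 3.29% fell in Tet2-/- cells and 5.3% rose and 3.17% fell in wild-type cells. The medians of the list were -0.17 and -0.13, beside -0.01 for all genes in each. Nt5e, which encodes the adenosine-producing enzyme CD73, rose by 1.86 in Tet2-/- cells (adjusted p = 1.46e-05) and by 2.35 in wild-type cells (2.04e-06). Penk, the gene of the opioid peptide precursor proenkephalin, fell by 2.73 in Tet2-/- cells (4.51e-06) and fell by 2.82 in wild-type cells (3.03e-06). Prdm1, which encodes the repressor Blimp-1, fell by 1.64 in wild-type cells (2.90e-06), and Cd83 fell by 1.76 in Tet2-/- cells (2.17e-05). Each was also lower in Th17 cells in the other genotype. Prdm1 averaged 6.10 in Tet2-/- Th17 and 6.74 in Tet2-/- Th1 cells, and Cd83 6.91 in wild-type Th17 and 8.69 in wild-type Th1 cells. Il2ra, named after its values were seen, read 12.3 to 12.5 on all arrays. The sort on CD25-negative cells came before stimulation and culture.

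Between genotypes 0 of the 28 genes were called. In Th17 cells 21 of 28 differences were negative, with a median of -0.09 beside 0.02 for all genes, and 7 had an unadjusted p under 0.05, as did 4.25% of all genes. The smallest p belonged to Il10 (-0.40), the costimulatory receptor Tnfrsf9 (-0.61) and the chemokine receptors Ccr8 (-0.41) and Ccr4 (-0.53), with adjusted p of 0.730 to 0.762. Il10 read 4.05 to 4.54 in Th17 cells, so its expression is not shown. In Th1 cells 16 of 28 were negative, with a median of -0.02, and Prdm1 had the smallest p (-0.77, adjusted p = 0.176).

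Regulators of Foxp3, which include TGF-β receptors, Smad, Runx and Nr4a factors, were called in both directions between Th17 and Th1 cells, while Foxp3 itself did not pass the threshold. Of 28 measured genes out of 30, 8 rose and 3 fell in Tet2-/- cells (against 7.14% and 3.29% of all genes), and 14 rose and 3 fell in wild-type cells (against 5.3% and 3.17%). The list's medians were 0.28 and 0.35, beside -0.01 for all genes in each. The list as a whole was not tested. Smad3, a transducer of TGF-β signals that binds a Foxp3 enhancer, rose by 1.53 in Tet2-/- cells (adjusted p = 4.15e-05) and by 1.75 in wild-type cells (1.62e-05). In wild-type cells Tgfbr1 rose by 1.16 (0.000176), Ets1 by 1.00 (0.000561) and Runx1 by 0.97 (0.00137). In Tet2-/- cells Tgfbr2 rose by 0.90 (0.0013), Runx3 fell by 0.96 (0.000741) and Nr4a3 fell by 1.30 (0.000122). Each of these genes had the same direction in the genotype not named. In Tet2-/- Th17 and Th1 cells the means were 8.27 and 7.82 for Tgfbr1, 10.18 and 9.49 for Ets1, and 9.20 and 8.38 for Runx1. In wild-type Th17 and Th1 cells they were 8.76 and 8.11 for Tgfbr2, 7.89 and 8.76 for Runx3, and 9.21 and 10.04 for Nr4a3.

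Between genotypes 0 of these 28 regulators were called. In Th17 cells 15 of 28 differences were negative, with a median of -0.02, and in Th1 cells 21 of 28 were positive, with a median of 0.08 beside 0.01 for all genes. Tgfbr1, a signalling receptor for TGF-β, read 8.24 and 8.29 in Tet2-/- Th17 cells against 8.88 and 8.67 in wild-type Th17 cells. These arrays did not overlap, and the difference of -0.51 (SE 0.134) had an adjusted p of 0.730.

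**Figure D4:**
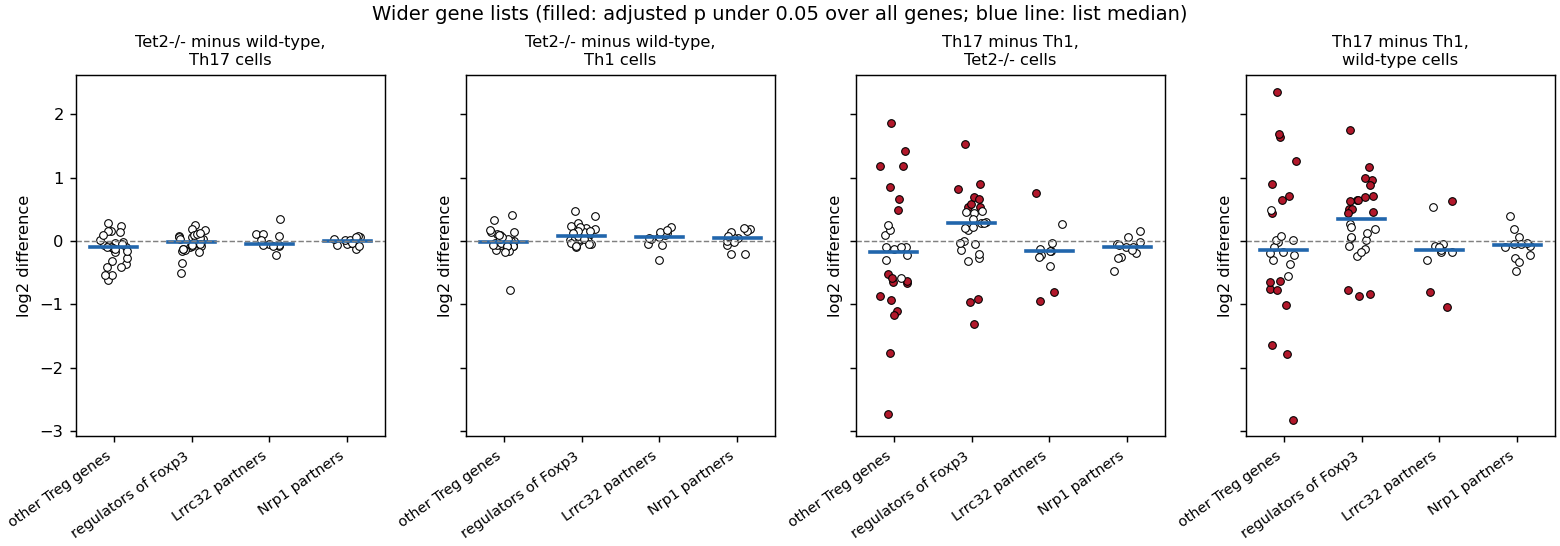
Log2 differences of the measured genes of 4 lists in 4 comparisons, 1 point per gene, filled where the adjusted p was under 0.05, with a blue line at each list's median. Filled points appear only in the Th17 minus Th1 panels, on both sides of 0 for the regulatory T cell genes and mostly above 0 for the regulators of Foxp3, whose medians were 0.28 in Tet2-/- and 0.35 in wild-type cells.

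Partners of Lrrc32 in the activation of latent TGF-β were called in both directions. Of 11 measured genes, 1 rose and 2 fell in each genotype, where 7.14% of all genes rose and 3.29% fell in Tet2-/- cells and 5.3% rose and 3.17% fell in wild-type cells. Tgfb3 rose in Th17 relative to Th1 cells by 0.76 in Tet2-/- cells (adjusted p = 0.0139) and by 0.63 in wild-type cells (0.040). The integrin subunit genes fell: Itgav differed by -0.81 in Tet2-/- cells (0.00905) and by -1.05 in wild-type cells (0.00222), and Itgb8 by -0.94 in Tet2-/- cells (0.00171) and by -0.80 in wild-type cells (0.0063). Of 12 measured neuropilin partners, 6 folate receptor and Izumo relatives and 3 other Foxp genes, 0 were called in any of the 5 comparisons. Genes of naive T cells, 8 of 10 measured, did not move as a block: in each genotype 4 rose and 1 fell in Th17 relative to Th1 cells, against the same shares of all genes. Lef1 rose by 1.31 in Tet2-/- and by 1.10 in wild-type cells, S1pr1 by 1.31 in Tet2-/- and by 0.86 in wild-type cells, and Ccr7 differed by -0.65 in Tet2-/- and by -0.52 in wild-type cells, also past the threshold.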

How the data were processed

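Total RNA was labelled with biotin and hybridised to Affymetrix arrays, per the labels. Each array has a deposited log2 signal for every probeset. The submitters' processing notes name RMA and Partek as the authors' tools, with no versions, build or filters. The log base was inferred from the range (lowest value 2.71, highest 13.8 or more on each array). RMA subtracts background and quantile-normalises, so low signals are compressed and a level is comparable between arrays for 1 probeset, not between probesets.

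Of 35556 probesets 21789 had 1 symbol, 1621 several and 12146 none listed; the probeset with the highest mean was kept for each of 19938 genes. Group means were estimated from the 8 arrays together in limma 3.58.1 under R 4.3.3, with lmFit and with eBayes using an intensity trend (residual degrees of freedom 4, prior 8.44). Tests of the 5 contrasts were two-sided, with Benjamini-Hochberg adjustment over all genes, and a gene was called (rose, fell) at an adjusted p under 0.05. Intervals are 95%. The number of arrays limits the precision.

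The 7 genes, the gene lists and the tests were chosen with earlier results of these data known. Named in each comparison were the 7 genes, up to 4 genes per list with the smallest p, and for Foxp3, Gpr83 and Nrp1 the 3 genes of highest Pearson r. Replicate numbers were not used to pair the arrays: the labels give no pairing, and deviations of same-numbered arrays correlated at -0.189 to 0.0534. Whether arrays shared animals in some other way is not known. Alternatives were 8 settings that leave out an array, a replicate block, array weights, no trend, dim genes left out (groups all under 6 log2 units), requantiling, contrast groups alone, mean of probesets, all probesets, a Y-linked covariate, and leaving out both arrays with extreme Y-linked levels. The fit was tested on simulated data. Some genes of the lists are not analysed here.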

Additional observations from a re-analysis of the deposited data

Results flagged for a closer look

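Nrp1 and Izumo1r were singled out because both Tet2-/- arrays lay below both wild-type arrays in Th17 cells and above both in Th1 cells. The difference of the genotype effects, Th17 minus Th1, was -0.88 for Nrp1 (SE 0.337, unadjusted p = 0.0218 and adjusted p = 0.999 in limma) and -0.50 for Izumo1r (SE 0.172, unadjusted p = 0.0125, adjusted p = 0.999), so neither passed the threshold over all genes. For Nrp1 the Th1 side was 0.04 without Tet2-/- Th1 replicate 1. Its Tet2-/- Th1 replicate 2 (7.082) lay barely above wild-type Th1 replicate 1 (7.080).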

How the results depend on the processing

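Gpr83 between Th17 and Th1 cells kept its call in 18 of 18 settings in each genotype, with log2 differences of 0.63 to 0.95 in Tet2-/- cells. Between Tet2-/- and wild-type Th17 cells the count of called genes among the 7 went to 1 (Gpr83) with array weights and with dim genes left out; the weights came out equal within each group, so they weighted groups. Between Th17 and Th1 cells the count in Tet2-/- cells was 1 to 2 when an array was left out, and 2 with a replicate block, no intensity trend, array weights or dim genes left out, where Lrrc32 joined (adjusted p = 0.0476, 0.0479, 0.0327 and 0.0359). In wild-type cells it was 1 to 2 when an array was left out, and 1 with all probesets or without the arrays of highest and lowest Y-linked level, where Lrrc32 was lost (adjusted p = 0.0985 and 0.0835); without wild-type Th17 replicate 1 or 2 or wild-type Th1 replicate 2 its adjusted p was 0.0509, 0.0773 and 0.0512. The replicate block changed no other call among the 7 genes.

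Of 35 log2 differences of the 7 genes, 28 kept their direction throughout. With an array left out the range was -0.14 to 0.13 for Foxp3 and -0.053 to 0.083 for Ikzf2 between Tet2-/- and wild-type Th17 cells, -0.11 to 0.57 for Lrrc32 between the Th1 groups, -0.59 to 0.087 for Lrrc32 in the difference of the genotype effects, -0.085 to 0.18 for Foxp3 between wild-type Th17 and Th1 cells, and -0.12 to 0.020 for Ikzf2 between Tet2-/- Th17 and Th1 cells. Ikzf2 between the Th17 genotypes was -0.00045 when normalised again and -0.020 with the Y-linked covariate, and Ikzf4 between wild-type Th17 and Th1 cells was -0.053 when normalised again. The causes were not tested.

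Genes called over all settings numbered 815 to 2712 between Th17 and Th1 cells without Tet2, against 2078 in the fit reported, and 622 to 1788 in wild-type cells, against 1689; 0 to 9 were called between the Th17 genotypes, 0 to 2 between the Th1 genotypes and 0 to 4 for the difference of the effects. Fitting the compared groups alone was not possible for the last. The signal of Foxp3 and Ikzf2, near or below the 95th percentile of olfactory receptor genes, limits what can be said of them.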
